A study of Mus musculus with 18 samples.

Results

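The RNA levels of 34 genes of ribosome biogenesis and of classic Myc targets were followed through 18 Affymetrix arrays of mouse embryonic stem cells (ESCs), 1 array per sample. The genes were chosen by symbol. Each was represented by the probe set that the platform annotation assigns to it, and a gene with several by the brightest on average over all 18 arrays. They are 34 of the 18193 genes on the array that could be represented in this way. All 34 read above the level filter of 4.64 on the log2 scale in all 18 arrays, so no member was lost to the filter. Of the 34, 20 had several probe sets and 14 had 1.

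All samples were male 129SV EBRTcH3 ESCs or their derivatives, grown with LIF and serum unless named as 2i. Parental ESCs in serum gave 2 untreated samples, 2 samples after 5 days of LY294002 and 1 sample after 2 days. LY294002 is an inhibitor of PI3K, a kinase that relays growth factor signals. The study asked how this inhibitor acts on parental ESCs, on ESCs overexpressing c-Myc and on ESCs in 2i, and how the ablation of Max acts with and without extra p110 alpha. The line labelled as overexpressing wild-type c-Myc and the line labelled as overexpressing c-Myc T58A each gave an untreated, a day 2 and a day 5 sample, each on 1 array. T58A is a form of c-Myc with a changed phosphorylation site that slows its breakdown. Parental ESCs kept in 2i, which blocks the kinases MEK and GSK3, gave 1 untreated sample and 1 sample after 5 days of LY294002. The Max-null line gave 1 untreated sample and samples at 4 and 6 days of doxycycline (Dox), which turns off Max expression in it. The Max-null line overexpressing p110 alpha, a catalytic subunit of PI3K, gave 1 untreated sample and 1 Dox sample, whose day the labels do not give. Each kind of line is represented by a single line, and neither the promoter that drives each cDNA nor the clonal origin is stated.

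Ribosomes are built in the nucleolus. RNA polymerase I copies the ribosomal DNA into a long precursor, snoRNPs guide its chemical modification, and processing factors cut it and fold it into the small and large subunits. The transcription factor Myc pairs with Max, binds the letters CACGTG (the E-box) and is known for driving many of these genes, together with genes that make nucleotides and polyamines. ESCs divide fast and have a high demand for ribosomes.

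Before the results, 3 facts about the arrays bear on all of them. The parental serum replicate 1 pair and the 2i pair, 4 arrays in all, had medians between 5.02 and 5.05 and 9 decimals in the deposited table, and the other 14 had medians between 5.31 and 5.52 and 6 decimals. The 2 sets are therefore treated as separate normalization runs, which no label states, and levels are compared only within a set. The Myc probe set read 7.51 in the untreated line labelled wild-type c-Myc and 6.99 in the untreated line labelled T58A, against 7.43 in parental replicate 2. Max, at 8.17 to 8.71 in the 13 arrays that are not Max-null, read 7.09 in untreated Max-null ESCs, 6.89 at Dox day 4 and 7.18 at day 6. It read 6.70 and 6.33 in the p110 alpha line without and with Dox. The brightest probe set for Pik3ca, which encodes p110 alpha, read 8.50 in the untreated Max-null line and 8.82 in the untreated p110 alpha line. Other Pik3ca sets went both ways between these arrays, for example 8.32 and 8.54, and 7.73 and 7.51. With Dox the brightest set read 7.39 at day 4 and 7.23 at day 6 in the Max-null line, and 8.27 in the p110 alpha line. Whether these probe sets can see the introduced cDNAs or the ablation is not stated. The lines are therefore named below by their labels, and every direction drawn between lines rests on those labels. For the T58A line the labels conflict. Titles of its LY294002 arrays name c-Myc(T58A), but free text attached to its array without inhibitor speaks of N-Myc for them. The titles were followed, and which factor was introduced was not tested. The ESC markers Pou5f1 and Sox2 read between 12.57 and 13.20 in the 14 arrays of the larger run, and of the 6 fibroblast markers Col3a1 read 2.64 to 3.46, Col1a2 5.07 to 6.79 and Thy1 5.15 to 6.69.

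The promoters of 28 members were found in the RefSeq promoter table of build GRCm38.p6, which gives 250 bases before and 50 bases after each start site. Those of Rrs1, Rrp12, Bop1, Fbl, Srm and Npm1 are not used here. CACGTG, which reads the same on both strands, occurred in 9 of the 28 (32.1%), namely in Rrn3, Mybbp1a, Utp20, Wdr43, Pes1, Nop2, Nle1, Nme1 and Hspd1. It occurred in 1479 of 14452 array genes with a promoter in the table (10.23%). The 5 with the largest mean size of Dox change are shown, because they are the members that carry the Myc-Max letters and moved most when Dox was added. CACGTG is in capitals and the rest in lower case, 5′ to 3′. The first 3 are short windows around a copy that lies 37, 23 and 17 bases after the start site, in that order. For Hspd1 and Nop2 the 250 bases before the start site are shown, with the copy 80 and 60 bases before it.
Utp20, chr10:88826765-88826789 (minus strand): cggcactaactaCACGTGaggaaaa
Nle1, chr11:82908355-82908384 (minus strand): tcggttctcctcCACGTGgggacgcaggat
Wdr43, chr17:71616220-71616249 (plus strand): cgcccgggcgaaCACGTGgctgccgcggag
Hspd1, chr1:55088244-55088493 (minus strand): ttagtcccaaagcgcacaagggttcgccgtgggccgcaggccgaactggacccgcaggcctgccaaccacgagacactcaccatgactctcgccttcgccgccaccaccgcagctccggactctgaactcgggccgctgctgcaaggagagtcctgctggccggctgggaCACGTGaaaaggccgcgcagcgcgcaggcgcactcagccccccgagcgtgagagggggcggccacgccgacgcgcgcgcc
Nop2, chr6:125131633-125131882 (plus strand): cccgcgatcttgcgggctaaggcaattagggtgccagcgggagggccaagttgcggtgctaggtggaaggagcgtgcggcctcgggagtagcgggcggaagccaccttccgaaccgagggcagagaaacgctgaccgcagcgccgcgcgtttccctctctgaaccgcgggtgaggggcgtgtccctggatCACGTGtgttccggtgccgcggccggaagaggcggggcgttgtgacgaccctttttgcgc
A match of these letters is a description of the window and shows no binding.

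The members did not follow a single pattern through the series. In the plot of changes against each sample's own untreated sample, the serum LY294002 columns except 1 held mostly small positive values. The exception was the T58A line at day 2, with a member median of 0.021 (all genes 0.025). The 2i column lay near 0 as well, and the 2 Dox columns of the Max-null line held the lowest values. The Dox column of the p110 alpha line lay near 0 again.

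**Figure D1:**
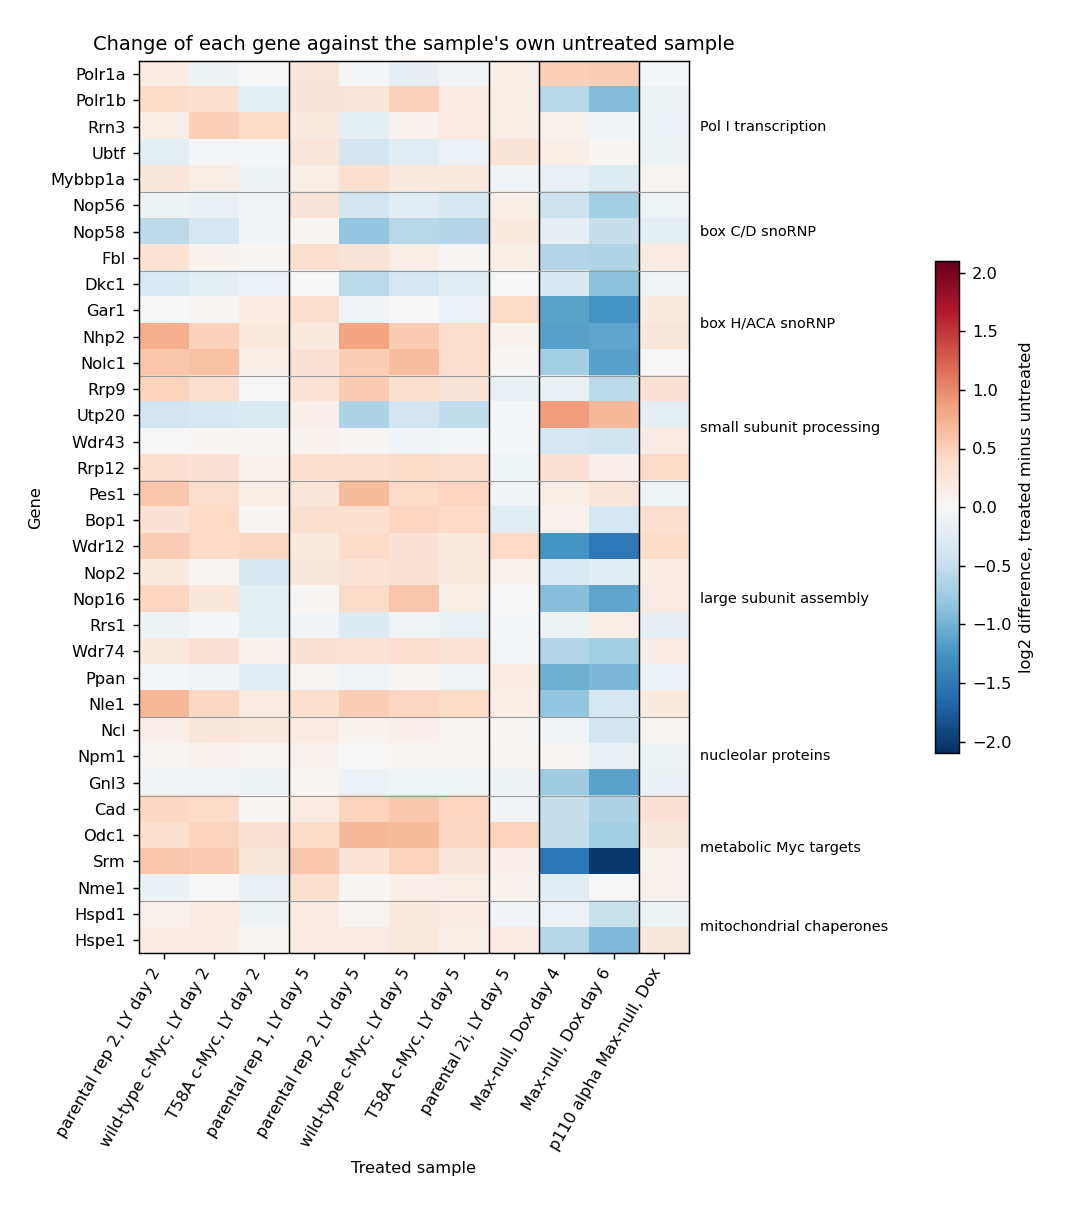
Change of each of the 34 genes (rows, by role) in each treated sample (columns) against that sample's own untreated sample, as a log2 difference shown by colour. The lowest values are those of Srm in Max-null ESCs, -1.52 at Dox day 4 and -2.02 at day 6, and the highest there is that of Utp20, 0.88 at day 4.

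Day 5 of LY294002 in serum is the comparison with the most samples. In the fit of 9 arrays from the larger run (parental replicate 2 and both c-Myc lines, each untreated and at days 2 and 5, with line as a block), 13 of 34 members rose and 5 fell at day 5 (limma, Benjamini-Hochberg adjusted p below 0.05 over 13425 genes). Among all genes tested 25.7% were higher and 18.5% lower, and the members' counts have to be read against these shares. The median member change was 0.16 on the log2 scale and that of all genes 0.05. These p-values measure the spread between these samples, which may be technical, since separate cultures were not stated. In bulk RNA, fewer cells that express a gene and less of its RNA per cell cannot be told apart.

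Of the 4 metabolic Myc targets 3 rose. Odc1, the first enzyme of polyamine synthesis, read 12.32 in parental replicate 2 untreated, 12.66 at day 2 and 13.01 at day 5. It read 12.42, 12.90 and 13.09 in the wild-type c-Myc line and 12.64, 12.94 and 13.08 in the T58A line. Every day 5 value lay above every untreated value, and Odc1 rose by 0.60 (SE 0.08, adjusted p = 0.000992, n = 3 lines). Cad, the enzyme that starts pyrimidine synthesis, read 9.78, 9.78 and 9.88 untreated and 10.24, 10.34 and 10.33 at day 5 in the same order of lines. The groups did not overlap, and Cad rose by 0.49 (SE 0.10, adjusted p = 0.00534, limma). Srm, the spermidine synthase, rose by 0.34 (adjusted p = 0.0191, limma). Nme1, a nucleoside diphosphate kinase, read 11.51, 11.53 and 11.62 untreated and 11.55, 11.63 and 11.75 at day 5 and did not pass.

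Among the box H/ACA snoRNP proteins, which carry the RNAs that guide pseudouridine formation, the members went apart. Nhp2 read 11.89, 12.38 and 12.57 untreated and 12.73, 12.90 and 12.94 at day 5 in parental replicate 2, the wild-type c-Myc line and the T58A line, with no overlap. It rose by 0.58 (SE 0.11, adjusted p = 0.00452, limma). Nolc1, a chaperone of snoRNPs in the nucleolus, read 10.35, 10.63 and 10.96 untreated and 10.86, 11.28 and 11.32 at day 5. The untreated T58A value lay above the parental day 5 value, so the groups overlapped, while each line rose on its own, by 0.51 in the fit (SE 0.11, adjusted p = 0.00646, limma). Its second probe set gave a mean of 0.08 over the 3 lines, with -0.22 in the T58A line, and its dimmest gave 0.40. Dkc1, the pseudouridine synthase of the same particles, read 12.62, 12.68 and 12.59 untreated and 12.06, 12.31 and 12.36 at day 5. All its day 5 values lay below all its untreated values, and it fell by 0.39 (SE 0.08, adjusted p = 0.00693, limma). Gar1, another core protein of these particles, read 11.05, 11.22 and 11.30 untreated and 10.98, 11.20 and 11.17 at day 5 and did not pass.

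The large subunit assembly factors held 5 of the 13 rises and no fall among 9 members. Pes1, which forms the PeBoW complex with Bop1 and Wdr12, read 10.21, 10.61 and 10.63 untreated and 10.88, 11.02 and 11.08 at day 5, with no overlap, and rose by 0.51 (SE 0.10, adjusted p = 0.00473, limma). Bop1 rose by 0.40, Wdr12 by 0.31, Wdr74 by 0.31 and Nle1 by 0.44 (adjusted p = 0.0111, 0.009, 0.0119 and 0.0101, limma). For Bop1 and Wdr12 this holds for the brightest probe set only: the mean of all sets gave -0.12 and -0.19. The second Pes1 set gave a mean change of only 0.08 over the 3 lines. The largest of the other 4, Nop16, had a fitted change of 0.37 and did not pass (adjusted p = 0.052, limma). Of the small subunit factors, Rrp9, which belongs to the U3 snoRNP, rose by 0.38 and Rrp12 by 0.36.

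The other falls were spread over roles. Utp20, a large scaffold of the small subunit processome, read 11.48, 11.44 and 11.37 untreated, 11.08, 11.11 and 11.08 at day 2 and 10.83, 11.03 and 10.86 at day 5. The 3 groups did not overlap, and Utp20 fell by 0.53 at day 5 (SE 0.07, adjusted p = 0.00128, limma). Nop58, a core protein of the box C/D snoRNPs that guide methylation of ribosomal RNA, read 13.02, 12.95 and 12.88 untreated and 12.20, 12.37 and 12.26 at day 5. It fell by 0.67 with no overlap (SE 0.10, adjusted p = 0.00184, limma). Its partner Nop56 fell by 0.32 (SE 0.08, adjusted p = 0.0112, limma), while Fbl, the methyltransferase of these particles, had a fitted change of 0.15 and did not pass. Ubtf, which opens ribosomal DNA for polymerase I, fell by 0.25 (SE 0.08, adjusted p = 0.0306, limma), and Mybbp1a, a nucleolar protein, rose by 0.25. The nucleolar proteins Ncl, Npm1 and Gnl3 had fitted changes between -0.10 and 0.08 and none passed.

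Parental replicate 1 shares no array with that fit and lies in the smaller run. All 13 members that rose in the fit were above their untreated value there too, by 0.13 to 0.56 with a median of 0.30. Of the 3444 genes that rose in the fit, 67.0% were above 0 in this pair. Of the 5 members that fell in the fit, 1 (Dkc1, -0.01) was below 0 in this pair, and the others read 0.04 (Nop58), 0.10 (Utp20), 0.26 (Ubtf) and 0.27 (Nop56). Of the 2478 genes that fell in the fit, 77.8% were below 0 there. In this pair, however, every member except Dkc1 and Rrs1 (-0.06) was above its untreated value, called in the fit or not. The signs of the 13 rises were the same in both runs and those of 4 of the 5 falls were not. With nearly all members above 0 in this pair, that says little about the calls. Whether the run or the sample has a part in this was not tested. Counted over all 4 serum pairs, 22 of 34 members were higher at day 5 in each pair (25.5% of genes) and Dkc1 and Rrs1, a factor of the 5S particle, were lower in each (20.3% of genes). The second probe set of Rrs1 read 0.07 in parental replicate 1.

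Day 2 of LY294002 in the same 9 arrays gave 8 rises and 1 fall among the members, against 18.3% of all genes higher and 12.2% lower. Day 2 and day 5 share their untreated arrays. Wdr12 rose by 0.45 (SE 0.07, adjusted p = 0.00352), Srm by 0.44 (SE 0.09, adjusted p = 0.01), Odc1 by 0.37 (SE 0.08, adjusted p = 0.0124), Nhp2 by 0.49 (SE 0.11, adjusted p = 0.0148) and Nle1 by 0.44 (SE 0.10, adjusted p = 0.0165, limma). Nolc1, Pes1 and Rrn3, the factor that makes polymerase I competent to start, completed the rises, and Utp20 fell by 0.34 (SE 0.07, adjusted p = 0.0133, limma). With the probe sets of Wdr12 averaged its day 2 value was -0.15, and the second Pes1 set had a day 2 mean of 0.08. Rrn3 read 9.92, 9.93 and 9.99 untreated, 10.05, 10.43 and 10.38 at day 2, and 9.72, 10.01 and 10.16 at day 5. It was thus above all untreated values in each line at day 2 and on both sides of them at day 5. The direct test of day 5 minus day 2 passed for 0 of 34 members (limma), against 1.18% of genes higher and 1.09% lower, and for 7 members at an unadjusted p below 0.05 (23.5% of genes). The smallest p values were those of Nop58 (-0.36, adjusted p = 0.105), Rrn3 (-0.32, adjusted p = 0.108) and Odc1 (0.23, adjusted p = 0.149, limma).

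Some of these counts rested on single lines. Without the wild-type c-Myc line the day 2 count of called members went from 9 to 0 and the day 5 count from 18 to 5. Without parental replicate 2 the day 2 count was 4. The shares of all genes called in these smaller fits are not given here, so it is not shown whether the shifts are particular to the members. The factor Myc itself rose by 2.27 at day 5 (SE 0.18, adjusted p = 0.000158, limma), from 7.43, 7.51 and 6.99 to 9.60, 9.60 and 9.55. The related gene Mycn, on its brightest probe set, rose by 1.69 at day 2 (SE 0.33, adjusted p = 0.00821, limma). It read 11.33, 10.07 and 9.33 untreated and 12.38, 11.83 and 11.60 at day 2. Of the 7 ESC markers, 4 fell at day 5 in the same fit, with a median of -0.35 over the list, and the summed linear level of the list went from 39300 to 43800 untreated to 31200 to 35500. Of 3 trophoblast markers tested, Eomes (0.68) and Cdx2 (0.54) rose, and of 6 endoderm markers Dab2 rose (0.80). Of 4 neural markers, Sox1 (-2.30) and Tubb3 (-0.95) fell and Nes (0.71) rose, and neither of the 2 fibroblast markers tested passed. Their part in the members' values was not tested.

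Split by kind of line, the fit of 8 serum arrays with the pair as a block called 0 of 34 members in the 2 parental pairs (limma), against 0.112% of genes higher and 0.418% lower, and 12 members had an unadjusted p below 0.05 (21.8% of genes). The smallest p values were those of Odc1 (0.53, SE 0.14, adjusted p = 0.15), Nle1 (0.43, adjusted p = 0.152) and Rrp9 (0.41, adjusted p = 0.172, limma). In the 2 c-Myc lines it called 0 members, against 1.09% higher and 1.53% lower, and 9 had an unadjusted p below 0.05 (28.3% of genes), led by Bop1 (0.44, SE 0.10, adjusted p = 0.0926, limma). Leaving out parental replicate 1, which comes from the other run, raised these counts to 10 in parental and 15 in c-Myc lines. The parental arm is then a single pair, and its spread is taken from the 2 c-Myc pairs on the assumption that it is alike. Leaving out parental replicate 2 raised that of the c-Myc lines to 16. The shares of all genes in these smaller fits are not given here, so the counts cannot be read as particular to the members. The difference between c-Myc and parental lines in their day 5 change passed for 0 of 34 members and 0 of 13412 genes (limma). No member reached an unadjusted p below 0.05, and 3.41% of genes did. Its median over members was -0.02, and the smallest p was that of Fbl at -0.23 (SE 0.15, adjusted p = 0.996, limma).

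The next comparison is of levels between lines. Averaged over the 3 time points of the 9-array fit, 10 of 34 members were higher in the 2 lines labelled c-Myc than in parental replicate 2 and 0 were lower, against 7.02% of all genes higher and 7.2% lower. The median member difference was 0.21 and that of all genes 0.05, and 33 of 34 members lay above 0, as did 7887 of 13425 genes. At an unadjusted p below 0.05, 21 members were higher and 0 lower (20.4% and 15.2% of genes). The spread behind these tests is over time points of 1 line of each kind, not over lines, so line and construct cannot be told apart. The lines are those of the labels, with the untreated Myc values given above. The brightest set of the related gene Mycn read 11.33 untreated in parental replicate 2, 10.07 in the wild-type c-Myc line and 9.33 in the T58A line. A second set read 7.16, 6.99 and 6.01, and the dimmest went the other way, at 6.40, 6.75 and 6.71. The part of Mycn in the members' values was not tested.

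**Figure D2:**
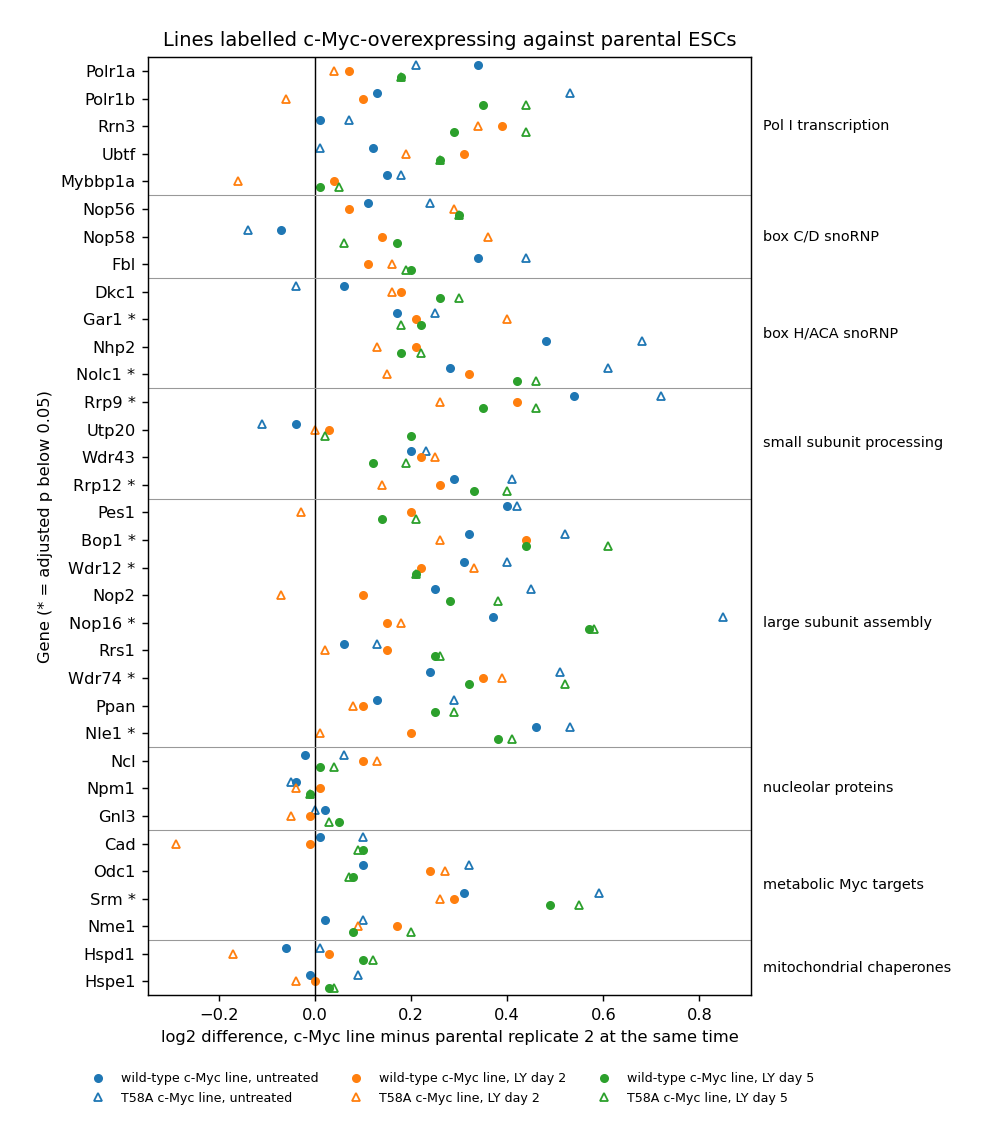
Log2 difference between each c-Myc line and parental replicate 2 at the same time point for each gene (rows), 6 points per gene. For the 10 genes marked as past the adjusted p threshold of 0.05, among them Wdr74, Rrp9, Srm and Bop1, all 6 points lie to the right of 0.

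Of the 10 members, 5 belong to large subunit assembly. Wdr74, a factor that helps release an assembly enzyme from the precursor, read 10.42, 10.61 and 10.70 in parental replicate 2 at the 3 times. It read 10.66, 10.96 and 11.02 in the wild-type c-Myc line and 10.93, 11.00 and 11.21 in the T58A line. At each time point both c-Myc lines were above parental, and the difference was 0.39 (SE 0.06, adjusted p = 0.0149, limma). Bop1 was higher by 0.44 (SE 0.08, adjusted p = 0.0203, limma), although its dimmest probe set gave -0.27. Wdr12 was higher by 0.28 (SE 0.06, adjusted p = 0.0293, limma), while its second probe set gave a mean of -0.16. Nop16 and Nle1 were higher by 0.45 and 0.33.

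Rrp9 read 8.57, 9.03 and 9.10 in parental cells, 9.10, 9.45 and 9.45 in the wild-type line and 9.29, 9.29 and 9.56 in the T58A line. It was higher by 0.46 (SE 0.09, adjusted p = 0.0201, limma). Srm read 11.31, 11.87 and 11.60 in parental cells, 11.62, 12.16 and 12.09 in the wild-type line and 11.90, 12.13 and 12.15 in the T58A line, and was higher by 0.42 (SE 0.08, adjusted p = 0.0201, limma). Rrp12 (0.31), Nolc1 (0.38) and Gar1 (0.24) also passed. The 3 nucleolar proteins (median 0.01) and the 2 mitochondrial chaperones Hspd1 and Hspe1 (median 0.01) did not. Across single arrays, 21 of 34 members were higher in both c-Myc lines at all 3 times (21.6% of genes), and 0 were lower in both at all 3 (13.9% of genes). The call itself was fragile: with any 1 of the 3 time points left out, no member passed.

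Between the lines labelled T58A and wild-type c-Myc, 0 of 34 members and 0 of 13425 genes differed (limma), no member reached an unadjusted p below 0.05, and 3.46% of genes did. The smallest p was that of Wdr74, which was 0.16 higher in the T58A line (SE 0.07, adjusted p = 0.992, limma).

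In 2i the changes after 5 days of LY294002 were small. In this single pair 21 of 34 were above 0, the median was 0.06, and no member lay 1.5-fold away, against 2.18% of genes higher and 6.51% lower by at least that much. The largest positive differences were those of Odc1, from 11.49 to 11.94, of Wdr12, from 9.26 to 9.69, and of Gar1, from 10.14 to 10.56. The most negative one was that of Bop1, from 8.66 to 8.43. The serum pair of the same run, parental replicate 1, had 32 of 34 members above 0 and a median of 0.22, also with no member at 1.5-fold. Of the 13 members that rose at day 5 in the 9-array fit, 6 were above 0 in 2i, where 54.7% of the genes that rose in the fit were. Rrp12 read 8.21 and 8.56 in serum without and with LY294002, and 7.92 and 7.84 in 2i. Rrp9 read 9.43 and 9.72 in serum, and 9.66 and 9.51 in 2i. A test of the difference, chosen after the data were seen, compared the 2i pair with both parental serum pairs. It passed for 0 of 34 members and 0 of 13067 genes (limma, 1 residual degree of freedom), no member had an unadjusted p below 0.05, and 2.77% of genes did. The smallest p values were those of Bop1 (-0.56, SE 0.33) and Rrp9 (-0.56, SE 0.34), each with an adjusted p of 1.

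Levels in 2i lay a little below those in serum. Without LY294002, 24 of 34 members were lower in 2i than in parental replicate 1, with a median of -0.09 (all genes 0.02). Rrn3, at 10.21 in serum and 9.52 in 2i, and Odc1, at 12.09 and 11.49, were the 2 members lower by at least 1.5-fold, as were 7.68% of genes. With LY294002, 31 of 34 were lower in 2i, with a median of -0.19 (all genes 0.02), and 5 were lower by at least 1.5-fold (6.76% of genes). These were Rrn3 (-0.75), Rrp12 (-0.73), Srm (-0.64), Nolc1 (-0.63) and Bop1 (-0.60). These are single arrays and were not tested. Myc itself read 9.30 and 10.26 in serum and 6.05 and 6.97 in 2i.

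With Dox in the Max-null line most members read below the untreated array. At day 4, 26 of 34 members were below the untreated value, with a median of -0.35 (all genes -0.09), and 13 were lower by at least 1.5-fold (22.2% of genes). At day 6, 28 were below it, with a median of -0.52 (all genes -0.09), and 16 were lower by at least 1.5-fold (28.7% of genes). The depth of the day 6 value depends on the scaling of that array, whose median was the highest of all. Centring the arrays moved the day 6 median of all genes from -0.09 to -0.27 and that of the members to -0.69, and quantile scaling gave 0.01 and -0.29. Below the untreated value at both days were 25 members (48.2% of genes). At both days, 12 members were lower by at least 1.5-fold (18.9% of genes), and Utp20 was the 1 member higher by that much (9.53% of genes). Both days share the untreated array. In the next fit the residual spread comes only from the gap between these 2 days of 1 line, and that of the untreated array was not estimated. Its p-values, here and below, therefore measure no spread between replicate cultures. With the days taken as replicates of Dox in a fit chosen after the data were seen, 3 members fell and 0 rose (limma, 1 residual degree of freedom), against 6.68% of genes lower and 3.99% higher. The fit of a single Dox effect over both Max-null lines called 0 of 34 members and 0 of 13536 genes (limma), with 0 members and 5.18% of genes at an unadjusted p below 0.05.

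**Figure D3:**
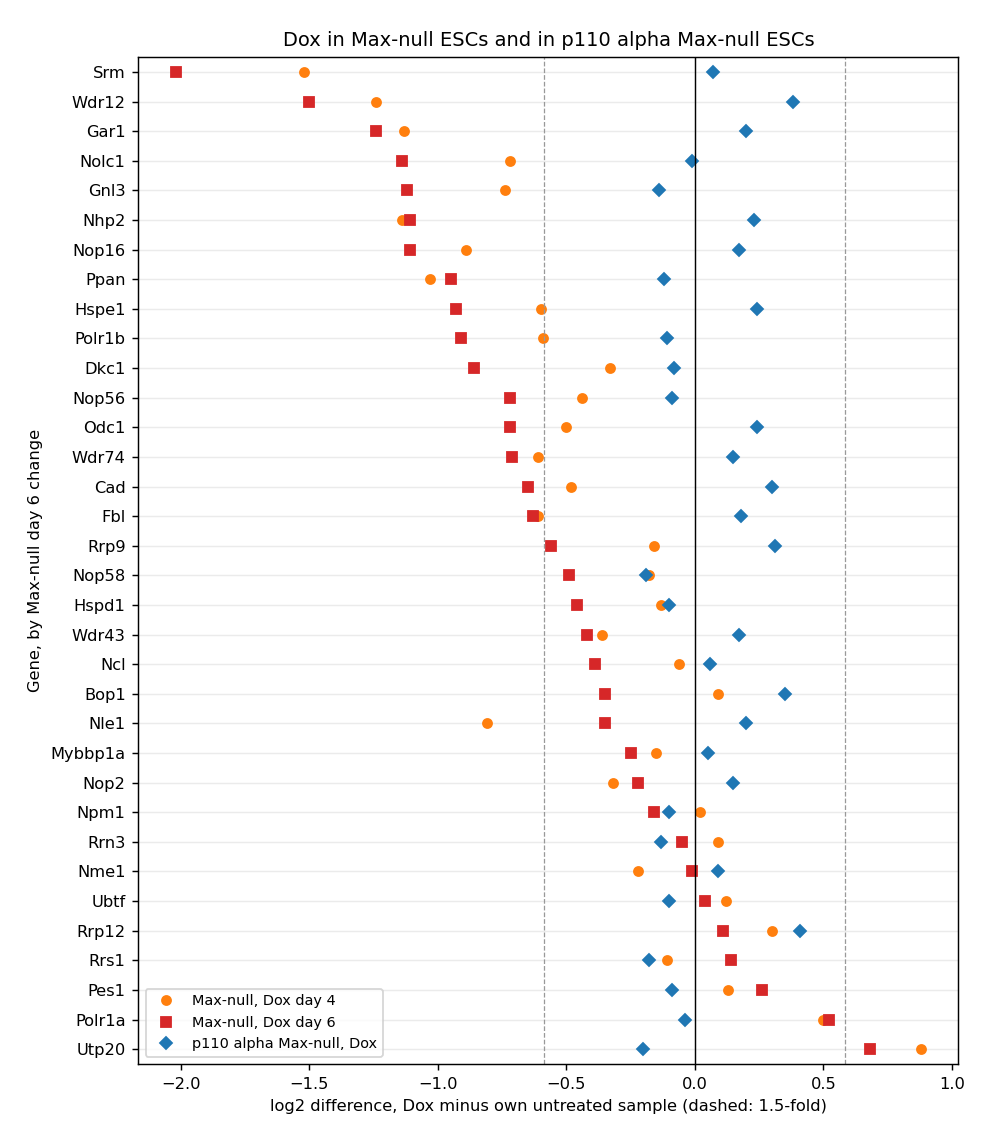
Log2 difference of each Dox sample from its own untreated sample for each gene (rows, ordered by the Max-null day 6 change), with dashed lines at 1.5-fold. The Max-null points run from -2.02 (Srm, day 6) to 0.88 (Utp20, day 4), and all 34 points of the p110 alpha line lie between -0.20 and 0.41.

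Srm fell most. It read 11.31 untreated, 9.79 at day 4 and 9.29 at day 6 in the Max-null line, and 10.99 and 11.06 without and with Dox in the p110 alpha line. The fitted fall was 1.77 (SE 0.35, adjusted p = 0.0127, limma), a level 3.42-fold lower. Wdr12 read 10.15, 8.91 and 8.66 in the Max-null line and 9.88 and 10.27 in the p110 alpha line, and fell by 1.37 (SE 0.34, adjusted p = 0.0292, limma). A second probe set for Wdr12 read 0.18 and -0.17 against untreated at the 2 days and -0.48 in the p110 alpha line, so the pattern between the lines is that of the brightest set only. Gar1 read 10.80, 9.67 and 9.56 in the Max-null line and 10.93 and 11.12 in the p110 alpha line, and fell by 1.18 (SE 0.33, adjusted p = 0.046, limma).

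The box H/ACA proteins were low as a group, with role medians of -0.92 at day 4 and -1.13 at day 6. Nhp2 went from 12.53 to 11.39 and 11.42, and its fitted value of -1.12 missed the threshold (SE 0.33, adjusted p = 0.0541, limma). Nolc1 went from 10.80 to 10.08 and 9.66 and Dkc1 from 12.60 to 12.26 and 11.73. The box C/D proteins had medians of -0.44 and -0.63, with Nop56 at 12.08, 11.64 and 11.36 and Fbl at 12.23, 11.62 and 11.60.

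Among large subunit factors, with medians of -0.61 and -0.35, Ppan, which binds early precursors of that subunit, went from 10.19 to 9.16 and 9.24. Nop16 went from 8.65 to 7.75 and 7.54. Pes1, by contrast, read 10.71, 10.84 and 10.97, and Rrs1 11.54, 11.42 and 11.67. The PeBoW partners thus read apart, with Wdr12 at -1.24 and -1.50, Bop1 at 0.09 and -0.35 and Pes1 at 0.13 and 0.26. Wdr12 and Bop1 are 2 of the 5 members whose probe sets disagreed in direction at a Dox day, with Nop16, Npm1 and Ubtf.

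Polymerase I transcription did not move as 1 group, with role medians of 0.09 and -0.05. Polr1b, the second largest subunit of the enzyme, went from 9.01 to 8.41 and 8.10, whereas Polr1a, the largest, read 8.69, 9.18 and 9.21. Small subunit factors had medians of 0.07 and -0.15. Their highest member, Utp20, read 10.73 untreated, 11.61 at day 4 and 11.41 at day 6, with a fitted value of 0.78 that did not pass (SE 0.33, adjusted p = 0.159, limma). Utp20 thus had the largest fall after Nop58 at day 5 of LY294002 in the 9-array fit, and the highest value among members with Dox. Of the nucleolar proteins, Gnl3, known for its link to stem cell proliferation, read 11.84, 11.11 and 10.73, and Npm1 14.02, 14.04 and 13.86. Hspe1, the co-chaperone of Hspd1, read 12.81, 12.21 and 11.87, and Hspd1 itself 12.90, 12.77 and 12.44. Odc1, the first polyamine enzyme, read 12.64, 12.13 and 11.92.

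On their brightest probe sets, the members with CACGTG in the 300 bases of the promoter table did not have the lowest values. Over the 9 with it the median Dox change was -0.15 at day 4 and -0.22 at day 6, and over the 19 without it -0.59 and -0.86, as a description without a test. Below 0 at both days were 6 of the 9 and 17 of the 19. Among members with CACGTG, second probe sets of Wdr43 (-0.99 and -1.47), Nme1 (-0.87 and -1.01) and Mybbp1a (-0.53 and -0.53) read lower than the brightest. That of Pes1 (0.52 and 0.83) read higher. Of the 5 shown above, Utp20 was higher with Dox, Nle1 went from 7.02 to 6.21 and 6.67, Wdr43 from 10.75 to 10.39 and 10.33, and Nop2 from 9.18 to 8.87 and 8.97. Srm, which fell most, is among those whose promoter is not used here.

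Markers of other cells moved in the same arrays. Of the 6 primitive endoderm markers, 4 were measured above the filter at day 4 and 5 at day 6, with medians of 0.81 and 1.56. These medians lean upward, because a marker counted if either array of the pair was above the filter. Foxa2, Dab2 and, at day 6, Afp entered through the Dox array only, and Gata4 was left out. Dab2 read 4.46, 4.97 and 5.67, Afp 4.53, 4.61 and 5.42 and Gata6 4.67, 5.34 and 6.24. Foxa2 went from 4.54 to 6.23 and 7.55 and Sox17 from 4.71 to 5.66 and 6.43, while Gata4 read 4.29, 4.37 and 4.38. The 7 ESC markers had a median of -0.05 at day 4 and -0.60 at day 6. The summed linear level of the endoderm list was 140 untreated, 243 at day 4 and 464 at day 6, and that of the ESC list 46900, 46000 and 32000. Among trophoblast markers Cdx2 went from 4.64 to 5.46 and 6.07 and Hand1 from 4.88 to 5.38 and 6.25, while Eomes read 6.90, 5.86 and 6.82. Of the fibroblast markers, Col1a2 went from 5.07 to 6.07 and 6.79, and Thy1 read 6.69, 6.15 and 6.45. Neural markers went both ways. Tubb3 went from 7.90 to 7.05 and 5.78 and Sox1 from 4.28 to 3.35 and 3.72. Pax6 went from 6.88 to 7.93 and 8.10 and Nes from 6.94 to 7.29 and 7.55. In the fit of both days Foxa2 (2.35) and Col1a2 (1.36, adjusted p = 0.0464, limma) passed among all markers, and no ESC marker did. In the p110 alpha line the endoderm list had a median of 0.03 and a summed level of 179 without and 184 with Dox, and the ESC list a median of 0.13. Their part in the members' values was not tested.

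In the p110 alpha Max-null line all members read within 1.5-fold of their untreated level. With Dox, 19 of 34 were above and 15 below, the median was 0.06 (all genes 0.07), and none lay 1.5-fold away, against 6.36% of genes higher and 2.08% lower. The most negative was Utp20, from 11.33 to 11.13, and the most positive Rrp12, from 8.25 to 8.66. Of the 12 members lower by at least 1.5-fold at both Max-null days, 8 (66.7%) were above untreated in the p110 alpha line, as were 1804 of the 2560 genes lower by that much at both days (70.5%). Both conditions hold for 13.3% of all genes. The 8 were Fbl, Gar1, Nhp2, Wdr12, Nop16, Wdr74, Srm and Hspe1. With no limit of size, 17 of the 25 members (68.0%) that were below untreated at both Max-null days were above it in the p110 alpha line, as were 66.0% of the 6522 genes below at both days (31.8% of all genes). These shares of the members lay near those of all genes. Of the 12 members, Polr1b, Nolc1, Ppan and Gnl3 were not above untreated in the p110 alpha line.

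The difference between the lines in their Dox change, in the same fit chosen after the data were seen, passed for 0 of 34 members (limma), against 0.916% of genes higher and 0.983% lower. At an unadjusted p below 0.05 there were 5 members (16.7% of genes). The fitted differences, p110 alpha minus Max-null, were 1.75 for the brightest Wdr12 set (SE 0.51, adjusted p = 0.116), 1.84 for Srm (SE 0.54, adjusted p = 0.117), 1.38 for Gar1 (adjusted p = 0.195), 1.36 for Nhp2 (adjusted p = 0.201) and 1.17 for Nop16 (adjusted p = 0.281, limma). The most negative was that of Utp20, -0.98 (adjusted p = 0.368, limma). These sizes are large and their errors, from 1 pair against 2 days of 1 line, are large too.

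The untreated lines already differed. In the p110 alpha line 24 of 34 members were lower than in the Max-null line, with a median of -0.15 (all genes -0.06). Nhp2 read 11.81 against 12.53 and Cad 9.36 against 10.03, both lower by at least 1.5-fold (14.7% of genes). Nop58 read 13.04 against 12.39 and Utp20 11.33 against 10.73, both higher by that much (5.33% of genes). Set against Dox day 4 of the Max-null line, 11 members were higher in the p110 alpha Dox sample by at least 1.5-fold (20.8% of genes), and against day 6, 14 were (26.7% of genes). The labels do not say which of these days it matches. Myc read 8.91 untreated in the Max-null line and 7.03 in the p110 alpha line, and Mycn 11.64 and 10.95. With Dox, Myc read 9.64 and 9.43 at the 2 Max-null days and 6.83 in the p110 alpha line. Mycn read 12.47, 11.96 and 10.53 in the same order. Their part in the members' values was not tested.

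**Figure D4:**
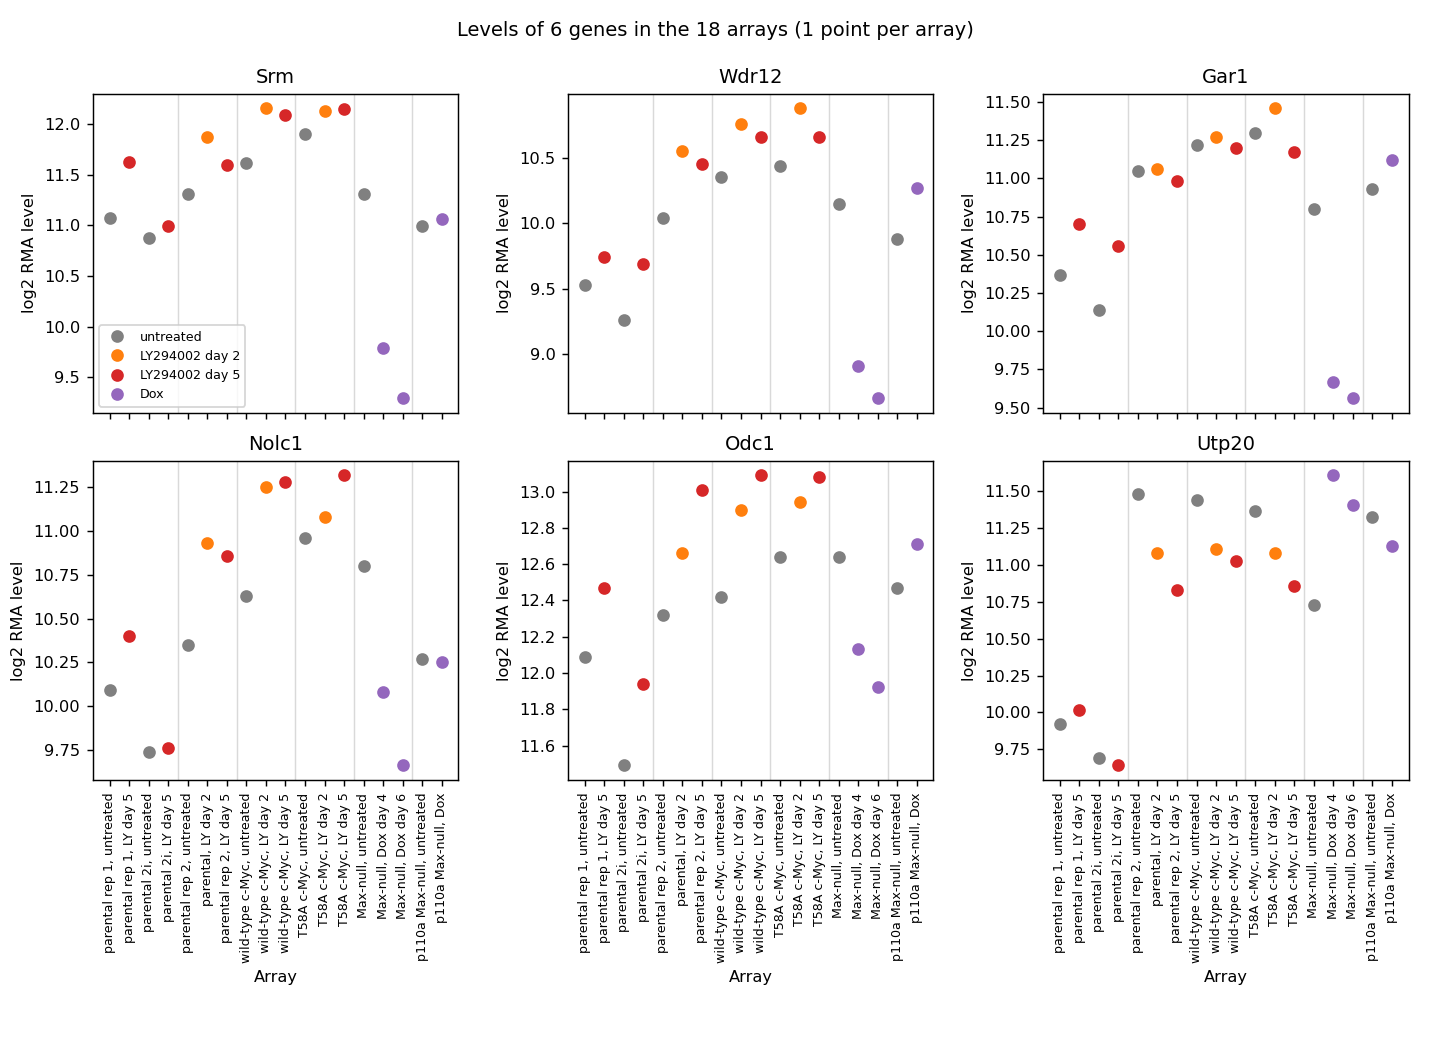
Log2 RMA level of 6 genes in the 18 arrays (1 point per array, coloured by treatment), with vertical lines between lines and media. Srm, Wdr12 and Gar1 are lowest at the 2 Max-null Dox arrays, where Srm reads 9.79 and 9.29, and Utp20 is lowest in the 4 arrays of the smaller run, which are not on the same scale as the other 14.

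The other genes of the pathway, from lists of the same roles that hold no member, were read in the same fits. At day 5 of LY294002, 21 of 49 other small subunit factors rose and 2 fell, and 16 of 51 other large subunit factors rose and 5 fell, beside 25.7% of all genes higher and 18.5% lower. Among 11 other snoRNP assembly factors 8 rose and 1 fell, and among 10 further polymerase I subunits and factors 5 rose and 1 fell. The largest values stood with Ebna1bp2 (0.77), a large subunit factor, and Pih1d1 (0.72), which helps assemble box C/D particles, while Tcof1, a nucleolar organiser of ribosomal DNA, fell by 0.66. Of 15 genes of nucleotide synthesis 10 rose and none fell, among them Gmps by 0.96 and Prps2 by 1.45. Of 43 cytosolic ribosomal protein genes 2 rose and 2 fell, with a median of 0.05.

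In the lines labelled c-Myc, 14 of 49 small subunit, 19 of 51 large subunit and 5 of 11 snoRNP assembly genes were higher than in parental replicate 2, and none was lower, beside 7.02% of all genes higher and 7.2% lower. Ddx27, a large subunit helicase, was higher by 0.38 and Ruvbl2, a component of the box C/D assembly machinery, by 0.53. Of the nucleotide synthesis genes 9 of 15 were higher, led by Adsl (0.40), Dhodh (0.46) and Umps (0.45). Of the further polymerase I genes 2 of 10 were higher and 1, Taf1d, was lower (-0.94). None of the 43 ribosomal protein genes passed in either direction (limma), 0 had an unadjusted p below 0.05, and their median was 0.01.

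With Dox in the Max-null line the medians at days 4 and 6 were -0.35 and -0.34 for small subunit factors, -0.34 and -0.45 for large subunit factors, -0.48 and -0.53 for snoRNP assembly and -0.59 and -0.69 for further polymerase I genes. Nucleotide synthesis stood lowest, at -0.75 and -0.99, with Dhodh and Adsl each falling by 1.80 in the fit of both days (adjusted p = 0.0163 and 0.039, limma). Rpf2, a carrier of the 5S particle, fell by 2.00 (SE 0.33, adjusted p = 0.0047, limma), and Dimt1, a ribosomal RNA methyltransferase, fell by 1.64 (SE 0.37, adjusted p = 0.0217, limma). In the snoRNP assembly list the only gene that passed went the other way: Ruvbl1, partner of Ruvbl2, rose by 1.48 (SE 0.33, adjusted p = 0.0206, limma). The ribosomal protein list had medians of -0.09 and -0.26. In the p110 alpha line these 6 lists had medians between -0.03 and 0.22.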

How the data were processed

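RNA of 18 mouse ESC samples was measured on Affymetrix arrays, 1 per sample, from TRIzol-extracted RNA labelled as biotinylated cRNA. The authors deposited log2 values per probe set, made by RMA with affy per the submitters' processing notes. Versions and settings are not given in the sources used here. The small number of arrays limits precision.

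There were 45101 probe sets: 64 controls, 34945 naming 1 gene in the platform annotation, 932 several and 9160 none. By gene identifier 34741 of the 34945 were matched, giving 18193 genes, each represented by the probe set with the highest mean. No value was rescaled. Genes above 4.64 (the 40th percentile) in at least 2 samples of a fit were tested with limma 3.58.1 (lmFit, eBayes, R 4.3.3), with a 2-sided Benjamini-Hochberg adjusted p below 0.05 over all genes of the fit. Single pairs were counted at 1.5-fold without a test. Each treated sample was set against the untreated sample that the labels name as its reference, and the pair or line was a block. As a check of the pairing, differences between 2 pairs in their untreated samples correlated with those in their day 5 samples over 13412 genes at r = 0.563 for the parental pairs, which includes any offset between runs, and 0.172 for the c-Myc lines. The fits were tested on simulated data.

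Named with full statistics were the 5 members with the smallest p in each direction, the 5 largest differences each way in single pairs and up to 3 genes of each other list. Alternatives changed the filter, scaling, probe set, prior, block and samples. The Dox fit per line and the test of 2i against serum were chosen after the data were seen. The members and lists were chosen with earlier results of these data known. Sequences are from RefSeq, build GRCm38.p6, matched by symbol.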

Additional observations from a re-analysis of the deposited data

Results flagged for a closer look

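The median member change with Dox had opposite signs in the Max-null lines, 0.06 in the p110 alpha line and -0.35 and -0.52 at the 2 Max-null days, and this difference was not tested. With averaged and with the dimmest probe sets the p110 alpha value was 0.01 and -0.04, so its sign turns with the probe set. The medians of all genes, 0.07 against -0.09 and -0.09, had the same signs. Srm (0.07), Wdr12 (0.38) and Gar1 (0.20) were above untreated in the p110 alpha line and below it at both Max-null days. Pes1 (-0.09 against 0.13 and 0.26), Polr1a (-0.04 against 0.50 and 0.52) and Utp20 (-0.20 against 0.88 and 0.68) went the other way. The second Wdr12 set read -0.48 in the p110 alpha line against 0.18 and -0.17, and a second Polr1a set 0.09 against 0.35 and 0.27. In limma's test of the difference none of these 6 genes passed.

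The day 5 LY294002 change of 4 members had the opposite sign in 2i and in both parental serum pairs. These were Bop1 (-0.23 against 0.33 in each), Rrp9 (-0.15 against 0.29 and 0.53), Rrp12 (-0.09 against 0.36 and 0.35) and Mybbp1a (-0.07 against 0.13 and 0.34). The second Bop1 set ran the other way, at 0.56 in 2i against -0.06 and -0.77. In limma's test of the difference none of the 4 passed.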

How the results depend on the processing

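With no replicate block, that is without the pairing, called members went from 9 to 3 at LY294002 day 2, from 18 to 8 at day 5 over 3 lines and from 10 to 0 for c-Myc lines minus parental, and the block changed no other count. A trended robust prior gave 16, 17 and, for Dox in the Max-null line alone, 5 in place of 9, 10 and 3, and quantile scaling gave 1 for the last. The dimmest probe set gave 6 for c-Myc lines minus parental, and 1 in place of 0 for the difference in Dox change between the Max-null lines. Leaving out 1 line, counts ranged from 0 (without the wild-type c-Myc line) to 12 (without T58A) at day 2, and from 5 to 18 at day 5. Leaving out 1 pair, they ranged from 0 to 10 in parental serum ESCs and from 0 to 16 in c-Myc lines. For c-Myc lines minus parental each time point left out gave 0. The counts under these alternatives are of members only and stand without the shares of all genes. Dox over both lines ranged from 0 to 3, with 3 without the p110 alpha line. The counts that were 0 for day 5 minus day 2, for T58A minus wild-type and for the day 5 difference between c-Myc and parental lines were 0 under every alternative run. The Dox day 6 median of -0.52 was -0.69 with centred arrays and -0.29 with quantile scaling, and the LY294002 median in 2i of 0.06 was 0.11 with averaged and 0.11 with the dimmest probe sets. The p110 alpha Dox median of 0.06 was -0.04 with the dimmest probe sets. Directions reversed with averaged probe sets for Wdr12 at day 2 (-0.15) and day 5 (-0.19) and Bop1 at day 5 (-0.12), and with the dimmest probe set for Bop1 at day 5 (-0.65) and in c-Myc lines (-0.27). For these genes the probe sets read apart, and the cause was not tested.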

Other observations

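Further lists of the pathway's surroundings gave smaller or mixed values. Their counts have to be read against the shares of all genes. These were 25.7% higher and 18.5% lower at day 5, and 7.02% higher and 7.2% lower in the c-Myc lines. Of 6 polyamine metabolism genes that are no members, 1 rose (Oaz2, 0.55) and 3 fell at day 5 of LY294002 in the 9-array fit, Azin1 by 0.67 and Sat1 by 0.37 among them. With Dox in the Max-null line the list had medians of 0.24 and 0.16, and Sat1, which acetylates spermidine, fell by 1.44 (SE 0.36, adjusted p = 0.0316, limma). Of 8 subunits of the cytosolic chaperonin TRiC, 3 rose at day 5 (Cct7, Cct2 and Cct5), none passed in the c-Myc lines (limma, 0 at an unadjusted p below 0.05), and the Dox medians were -0.36 and -0.61. Of 11 translation initiation genes, 2 rose and 2 fell at day 5, 2 were higher in the c-Myc lines (Eif3b, 0.27, and Eif2s3x, 0.24), and the Dox medians were -0.25 and -0.65.

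Of 12 genes of the Myc network, 4 rose and 3 fell at day 5 (25.7% and 18.5% of all genes). Mga was lower by 0.78 and Mxi1 higher by 0.81 beside Myc. None passed in the c-Myc lines (limma, 5 at an unadjusted p below 0.05). With Dox in the Max-null line, Mxd4, which pairs with Max against Myc, went from 5.12 to 6.69 and 7.01 and rose by 1.73 (SE 0.34, adjusted p = 0.012, limma), and Mxi1 fell by 1.25 (SE 0.34, adjusted p = 0.0431, limma).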
